A study of Rattus norvegicus with 70 samples.

Results

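The genes described here carry the signal of the ACTH receptor in the adrenal gland and were chosen as a list of 10 symbols: Mc2r, Mrap, Nr5a1, Nr0b1, Scarb1, Crem, Pde8a, Pde8b, Prkar1a and Agtr1b. All 10 were found by symbol among the 19441 genes of the deposited tables, and all 10 passed the filter on low values in adrenal. RNA sequencing was done on 6 tissues of male Wistar-Kyoto rats, an inbred strain, that breathed 0.8 ppm ozone (O3) or air (Air) for 4 h. In adrenal, 6 O3 libraries were set against 5 Air libraries. The comparison tissues held 5 O3 and 5 Air libraries in adipose tissue, 6 and 6 in hypothalamus, liver and lung, and 5 O3 and 6 Air libraries in muscle. The labels give no age, and they do not say in words that each library came from a different rat, so p-values measure the spread between libraries, which may be technical in part. Every Air library carries a lower number in its title than every O3 library of its tissue. The labels do not say what this number marks, and any effect that follows it cannot be told apart from that of ozone.

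ACTH from the pituitary binds the melanocortin 2 receptor, encoded by Mc2r, on cells of the adrenal cortex. The receptor reaches the cell surface only with its accessory protein MRAP, and it raises cyclic AMP, which releases the catalytic subunits of protein kinase A from regulatory subunits such as the product of Prkar1a, while phosphodiesterases such as the products of Pde8a and Pde8b degrade the messenger. Downstream stand the cyclic AMP-responsive factor CREM, the nuclear receptor NR5A1 (steroidogenic factor 1), its repressor NR0B1 (DAX1), and the lipoprotein receptor encoded by Scarb1, through which rodent adrenal cells take up cholesterol for steroid synthesis. Agtr1b encodes a rodent type 1 angiotensin II receptor of the adrenal.

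Promoters of Crem and Pde8a are shown because they hold the letters of a cyclic AMP response element or its core, on which CREM and CREB act. RefSeq promoter windows on the build GRCr8, from 250 bases before to 50 bases after a start site, matched 8 of the 10 members and gave 10 windows. The full element TGACGTCA stood in 612 of 33469 windows (1.83%), its core TGACG, which is part of the full element, in 7097 (21.2%), and the NR5A1 half-site AAGGTCA in 1543 (4.61%), all searched on both strands. Among the members' windows only the 2 inner Crem windows held the full element, 1 copy and 2 copies, and only Pde8a and the outer Crem window held the core without it. The half-site stood in none of the 10. In the lines below the capitals mark the element or its core, all windows lie on the plus strand, and a match describes letters and not binding.
Crem, inner window, chr17:58984547-58984846: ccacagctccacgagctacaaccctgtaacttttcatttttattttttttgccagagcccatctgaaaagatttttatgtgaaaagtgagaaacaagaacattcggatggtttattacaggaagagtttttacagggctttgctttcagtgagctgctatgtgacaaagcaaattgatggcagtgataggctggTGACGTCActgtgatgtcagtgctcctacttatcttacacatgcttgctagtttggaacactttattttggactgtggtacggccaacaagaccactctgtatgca
Crem, second inner window, chr17:58985240-58985539: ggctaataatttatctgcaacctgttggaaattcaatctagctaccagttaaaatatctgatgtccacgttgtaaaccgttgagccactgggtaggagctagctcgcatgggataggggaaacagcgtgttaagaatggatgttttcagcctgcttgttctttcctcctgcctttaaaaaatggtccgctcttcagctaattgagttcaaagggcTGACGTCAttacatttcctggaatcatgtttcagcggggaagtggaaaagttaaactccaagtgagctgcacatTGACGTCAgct
Pde8a, chr1:144575219-144575518: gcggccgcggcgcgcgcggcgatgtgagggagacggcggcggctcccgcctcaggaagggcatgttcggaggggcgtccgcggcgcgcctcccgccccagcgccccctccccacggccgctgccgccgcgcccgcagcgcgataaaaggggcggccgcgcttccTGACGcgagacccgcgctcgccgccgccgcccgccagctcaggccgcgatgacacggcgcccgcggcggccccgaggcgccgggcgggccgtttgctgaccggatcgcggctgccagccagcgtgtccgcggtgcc

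The deposited values are gene counts divided by a factor per library, and the reads recovered from them were 8854272 to 12769464 per adrenal library and up to 18848151 elsewhere. The tissue label was checked against markers of the cortex: summed over the 8 cortex markers measured, values reached 265955 to 459356 in O3 adrenals and 184872 to 378508 in Air adrenals. The members Mc2r and Nr5a1 are among these markers. Cyp11b1 and Hsd3b1 were not analysed here. Adrenal libraries Air 8 and O3 16 stood apart from the rest on the first principal component (38.3% of the variance) and had the lowest summed cortex markers of their groups, so results are given with and without both. Mitochondrially encoded genes made up 7.92% to 11.3% of the values in O3 adrenals and 8.59% to 11.8% in Air adrenals. In bulk tissue, fewer cells of a type and less RNA per cell cannot be told apart.

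Among the members in adrenal, the receptor's accessory protein gene, the scavenger receptor gene and the kinase regulatory subunit gene rose after ozone, the angiotensin receptor gene fell, and Mc2r itself did not pass the test. Of the 10 members, 3 rose (Mrap, Scarb1, Prkar1a) and 1 fell (Agtr1b) in limma's moderated test on log2(value + 1) with Benjamini-Hochberg adjusted p under 0.05. Over all 14026 genes tested, 9.23% rose and 9.38% fell, so the member counts stand against a background of 18.6% called in either direction. The median log2 fold change of the members was 0.01, and that of all genes was -0.00.

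**Figure D1:**
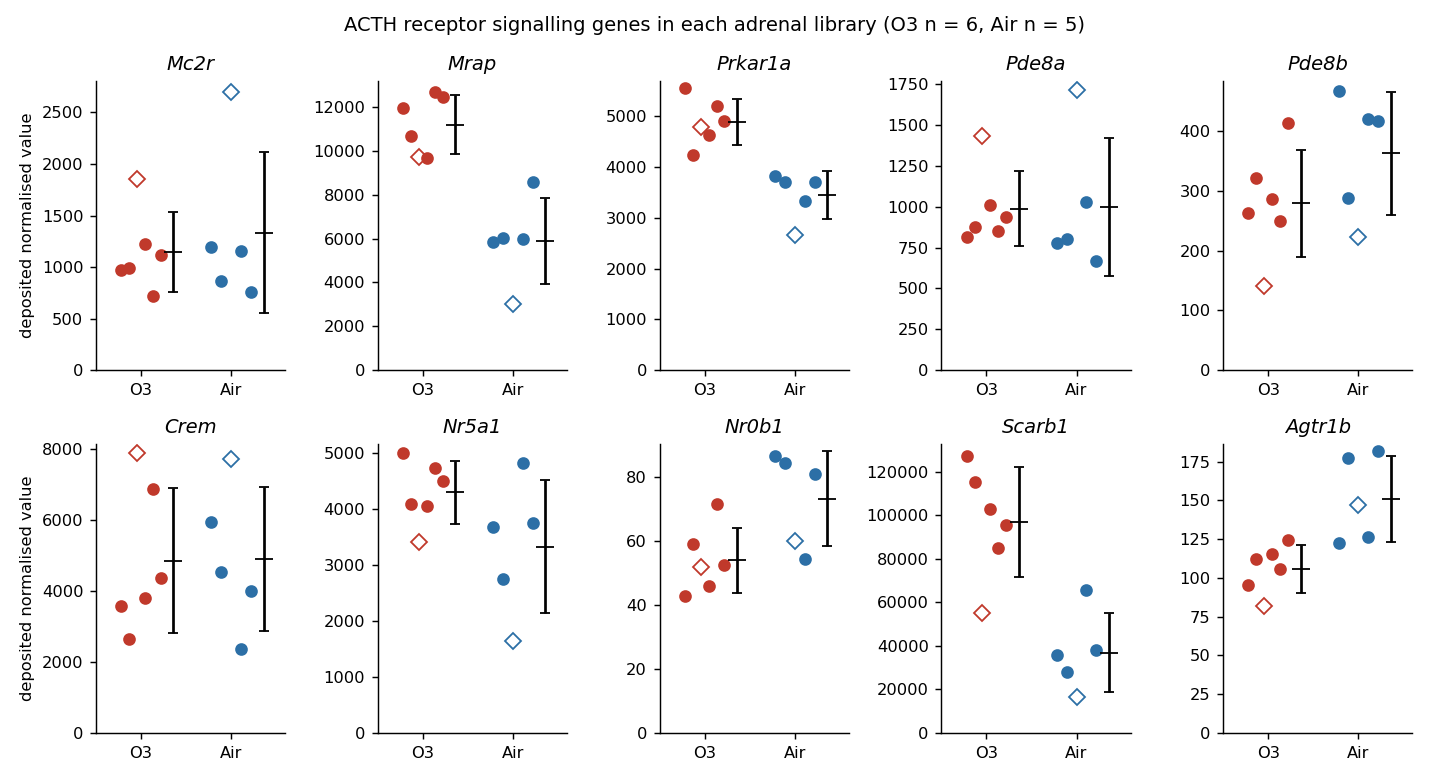
Deposited normalised value of each member (vertical axes from 0, in units of the deposited values) in each adrenal library, with 6 O3 libraries on the left and 5 Air libraries on the right of each panel; open diamonds are O3 16 and Air 8, and bars give the mean and SD. The O3 and Air libraries do not overlap for Mrap and Prkar1a, 1 O3 library lies below the highest Air library for Scarb1, and the groups lie over each other for Mc2r and Crem.

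Mc2r, the receptor gene, had a lowest value of 719.8, a median of 1053 and a highest value of 1858 in O3 adrenals. In Air adrenals its values were 1195, 865.5, 2697, 1155 and 761.4. The groups overlapped throughout, with the highest value of each group in the library that stood apart (O3 16 and Air 8). Its log2 fold change was -0.12 ± 0.31 (SE, adjusted p = 0.834), with a 95% interval of -0.79 to 0.54. Without Air 8 and O3 16 the fold change was 0.02 (adjusted p = 0.949). A change within those limits was not detectable with these libraries.

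Mrap, whose product escorts the receptor to the membrane, had 9684 as its lowest, 11297 as its median and 12691 as its highest value in O3 adrenals. The Air adrenals had 5828, 6043, 3032, 5990 and 8590. All 6 O3 libraries were above all 5 Air libraries, a separation found in 12.9% of all genes tested (6.49% with O3 above and 6.39% with O3 below). Mrap averaged 11189 ± 1353 in O3 adrenals and 5896 ± 1968 in Air adrenals (SD, n = 6 and 5). The log2 fold change was 0.99 ± 0.21 (SE, limma adjusted p = 0.00662), a fold of 1.99 with a 95% interval of 1.44 to 2.74. Without Air 8 and O3 16 it was 0.81 (limma adjusted p = 0.00069), and it was called in all 11 fits that left out 1 library. Thus the accessory protein gene rose while no change of the receptor gene was detected, but the difference between these effects was not tested.

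Fat around the gland also expresses Mrap, so adipocyte markers are set beside it. Of 8 adipocyte markers 2 rose in adrenal, the hormone gene Lep (1.52 ± 0.23) and the lipid droplet gene Cidec (1.23 ± 0.34), and 0 fell. The list summed to 2095 to 9515 in O3 adrenals and 1821 to 5044 in Air adrenals, and no marker of it was near 0 in every library. The adipocyte hormone gene Adipoq lay between 606.3 and 1479 in O3 adrenals and between 445.9 and 977.9 in Air adrenals, a log2 fold change of 0.22 ± 0.27 (SE; limma, adjusted p = 0.631). In adipose tissue itself Mrap stood at 7.35 to 22.7 per 1000 of Adipoq in O3 libraries and 6.63 to 12.8 in Air libraries. In adrenal the same ratio was 8069 to 19577 in O3 libraries and 3733 to 13069 in Air libraries, above the ratio in fat in both groups. The part of fat in the change of Mrap was not tested.

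The cortical enzyme gene Cyp11a1, which encodes the first enzyme of steroid synthesis, gives a second yardstick, chosen after seeing the data. Cyp11a1 itself had a log2 fold change of 0.39 ± 0.21 (SE; limma, adjusted p = 0.222). Mrap per 1000 of Cyp11a1 was 83.8 to 125 in O3 adrenals, with a median of 108, and 62.3 to 81.2 in Air adrenals, with a median of 66.0. Scarb1 per 1000 of Cyp11a1 was 701 to 1097 in O3 adrenals and 352 to 683 in Air adrenals. Both ratios separated the groups, with Air 8 and O3 16 included, but by narrow margins. The lowest O3 and highest Air ratios were 83.8 and 81.2 for Mrap and 701 and 683 for Scarb1. The share of all genes whose ratio to Cyp11a1 separates the groups was not counted, so this separation has no background beside it. The separation of Mrap depends on the yardstick. In Air 11 Mrap was 8590 beside 64778 of Star, and in O3 17 it was 9684 beside 116963. Relative to Star, Mrap was thus higher in that Air library. Relative to the enzyme gene Cyp21a1 (133140 in Air 11 and 133117 in O3 17) it was lower there.

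Prkar1a encodes the regulatory subunit that holds protein kinase A inactive until cyclic AMP binds. Its values in O3 adrenals ran from 4227 through a median of 4848 to 5547. In Air adrenals they were 3827, 3708, 2670, 3325 and 3695. The groups did not overlap, and the lowest value belonged to Air 8. On the log2 scale the change was 0.51 ± 0.12 (SE, limma adjusted p = 0.0114), a fold of 1.42 with a 95% interval of 1.19 to 1.71. Without Air 8 and O3 16 it was 0.43 (limma adjusted p = 0.00669), and all 11 fits that left out 1 library called it.

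Pde8a and Pde8b encode high-affinity cyclic AMP phosphodiesterases. Pde8a had 816.6, 905.7 and 1434 as its lowest, median and highest values in O3 adrenals, and 780.6, 804.8, 1711, 1026 and 664.8 in Air adrenals. The highest value of each group was again in O3 16 and Air 8, and the groups overlapped. Its log2 fold change was 0.04 ± 0.23 (SE, limma adjusted p = 0.928). Pde8b had 141.5, 275.2 and 413.9 in O3 adrenals and 467.7, 287.8, 222.4, 420.6 and 416.9 in Air adrenals. For Pde8b the groups overlapped too, O3 16 and Air 8 being the lowest of their groups. O3 over Air came to a log2 fold change of -0.39 ± 0.26 (SE, limma adjusted p = 0.342). The 95% intervals were -0.45 to 0.54 for Pde8a and -0.96 to 0.18 for Pde8b.

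Crem encodes activator and repressor forms of a cyclic AMP-responsive transcription factor, and the values are per gene, so that its short inducible repressor is not counted apart. Values in O3 adrenals ranged from 2656 through a median of 4073 to 7865, and in Air adrenals they were 5942, 4521, 7720, 2370 and 3983. The groups overlapped over nearly their whole range. This gave a log2 fold change of -0.01 ± 0.33 (SE, limma adjusted p = 0.986), with a 95% interval of -0.72 to 0.69.

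Nr5a1, the master regulator of steroidogenic genes, had 3417, 4292 and 5001 as its lowest, median and highest values in O3 adrenals, and 3678, 2746, 1652, 4820 and 3751 in Air adrenals. The highest Air library lay within the O3 range, and Air 8 was the lowest of all. The log2 fold change was 0.45 ± 0.23 (SE, limma adjusted p = 0.207), and 0.28 without Air 8 and O3 16. Nr0b1, which encodes its repressor, had 42.8, 52.0 and 71.3 in O3 adrenals and 86.3, 84.3, 59.8, 54.3 and 80.7 in Air adrenals. Of the 5 Air libraries 3 were above all O3 libraries, and the others lay within their range. On the log2 scale the change was -0.43 ± 0.19 (SE, limma adjusted p = 0.133), and it passed with limma array weights, which weight down libraries that fit poorly (-0.57, adjusted p = 0.0153).

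Scarb1, the gene of the HDL receptor, was the member with the largest log2 fold change in adrenal. Its values in O3 adrenals were 54947 at the lowest, 99105 at the median and 127342 at the highest, against 35960, 27820, 16486, 65633 and 38316 in Air adrenals. O3 16 lay below the highest Air library, and the other O3 libraries were above all Air libraries. Scarb1 averaged 96807 ± 25302 in O3 adrenals and 36843 ± 18219 in Air adrenals (SD, n = 6 and 5). O3 over Air came to a log2 fold change of 1.49 ± 0.31 (SE, limma adjusted p = 0.00522), a fold of 2.80 with a 95% interval of 1.76 to 4.46. It was 1.39 without Air 8 and O3 16 (limma adjusted p = 0.000622), and all 11 fits that left out 1 library called it.

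Agtr1b had 81.6, 108.8 and 124.3 as its lowest, median and highest values in O3 adrenals, and 122.6, 177.6, 147.1, 126.7 and 181.5 in Air adrenals. The groups touched only at the highest O3 and the lowest Air library. This gave a log2 fold change of -0.51 ± 0.16 (SE, limma adjusted p = 0.0437), a fold of 0.704. The call was held in 4 of 11 fits that left out 1 library and was lost without Air 6, Air 11, O3 14, O3 15, O3 16, O3 17 or O3 19 (adjusted p up to 0.110). Reads of Agtr1b and its near-identical paralog Agtr1a may be shared, and how the counting treated them is not given in the sources used here. Agtr1a moved the other way, at 661.7 ± 134.7 in O3 adrenals and 460.1 ± 62.9 in Air adrenals (SD, n = 6 and 5), with a log2 fold change of 0.51 ± 0.15 (SE; limma, adjusted p = 0.0335).

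**Figure D2:**
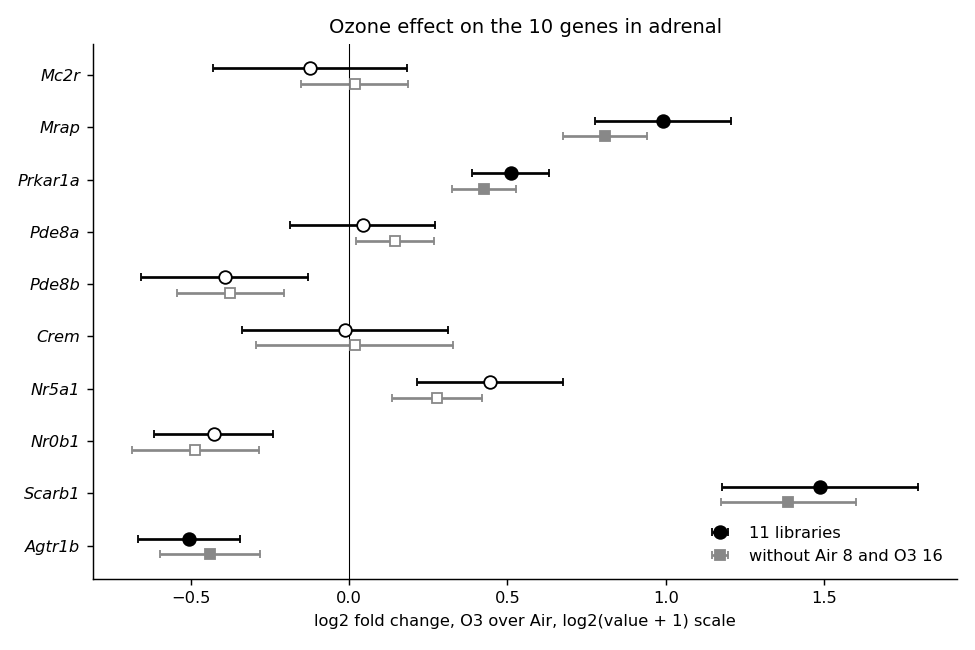
Log2 fold change of each member in adrenal, O3 over Air (horizontal axis, log2(value + 1) scale), with SE bars; circles use all 11 libraries, squares leave out Air 8 and O3 16, and filled symbols have adjusted p under 0.05. Scarb1, Mrap and Prkar1a lie above 0 and Agtr1b below 0 in both fits, and the Mc2r and Crem points lie near 0.

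The same 3 members that rose with 11 libraries and the 1 that fell were called without Air 8 and O3 16, although Agtr1b was then at an adjusted p of 0.04995. Other cell types were measured beside these results. The cortex list, which includes Mc2r and Nr5a1, had 2 risen markers of 8 and 0 fallen. The risen ones were the hormone subunit gene Inha (1.16 ± 0.20) and the electron carrier gene Fdx1 (0.76 ± 0.21). The medulla list had 1 risen member of 12, Th (0.99 ± 0.20), the rate-limiting enzyme gene of catecholamine synthesis, and its values summed to 25109 to 39055 in O3 adrenals and 14710 to 28739 in Air adrenals. When Air 8 and O3 16 were left out, 4 medulla markers and 3 cortex markers rose. That fit called more genes in general, with 2113 risen and 2107 fallen over all genes, against 1294 and 1315 with 11 libraries. Among endothelial markers 1 of 8 rose (Kdr, 0.48 ± 0.11). Among 7 capsule and fibroblast, 9 macrophage and 3 red blood cell markers limma, edgeR and DESeq2 each called 0 risen and 0 fallen, and at an unadjusted p under 0.05 there was 1 risen red blood cell marker and 0 others. With both left out limma called 1 macrophage marker risen and 2 endothelial markers fallen. The part of these shifts in the member results was not tested.

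The rest of the pathway was read from lists of its components, chosen with earlier results known, and no list was tested as a whole. Each count from limma with 11 libraries is set against the 18.6% of all genes called in adrenal (1294 risen and 1315 fallen). The other settings have other backgrounds. Over all genes, leaving out Air 8 and O3 16 gave 2113 risen and 2107 fallen, and array weights gave 2407 and 2415. DESeq2 gave 1639 and 1748, and edgeR 1230 and 1406. No background is given for counts at an unadjusted p. Of the melanocortin receptors, accessory proteins and ligands, 3 of 10 passed the filter and 1 rose (Mrap). Of 15 adenylyl cyclases and G protein subunits tested, 0 rose and 0 fell in limma with 11 libraries. At an unadjusted p under 0.05, 2 rose and 1 fell, edgeR called 0 risen and 1 fallen, DESeq2 called 2 risen and 1 fallen, and limma without Air 8 and O3 16 called 1 risen.

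Among protein kinase A subunits, inhibitors and anchors, 4 of 17 rose and 3 fell, with a list median of -0.21 (6 risen and 4 fallen without Air 8 and O3 16). Prkacb, which encodes a catalytic subunit, averaged 390.8 ± 103.2 in O3 adrenals and 190.9 ± 71.6 in Air adrenals (SD, n = 6 and 5), with no overlap and a log2 fold change of 1.08 ± 0.26 (SE; limma, adjusted p = 0.0118). The other main catalytic subunit gene, Prkaca, went the opposite way, with 1052 to 1278 in O3 adrenals and 1371 to 1768 in Air adrenals (-0.38 ± 0.10, limma adjusted p = 0.0216). Regulatory subunit genes were also split, since Prkar1a rose and Prkar2b fell (-0.45 ± 0.13), with 2786 to 3955 in O3 adrenals and 3929 to 5060.5 in Air adrenals. Pkia, which encodes a kinase inhibitor peptide, fell (-1.16 ± 0.30, limma adjusted p = 0.0176). The anchoring protein genes Akap2 (1.24 ± 0.20) and Akap5 (1.68 ± 0.44) rose. Prkaca, Prkar2b and Akap5 were named after their values were seen.

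Of 14 cyclic AMP phosphodiesterase genes tested, 5 rose and 1 fell, with a median of 0.01. Pde10a had 1000.1 to 1654 in O3 adrenals and 97.5 to 441.3 in Air adrenals, groups far apart, with a log2 fold change of 2.61 ± 0.30 (SE; limma, adjusted p = 0.000102). Pde4b, an enzyme gene that cyclic AMP induces, had 98.6 to 284.3 in O3 adrenals and 56.9 to 117.2 in Air adrenals (1.44 ± 0.27, adjusted p = 0.00262). Pde7a rose by 0.47 ± 0.14. Pde4a fell (-0.91 ± 0.24), at values of 8.17 to 15.2 in O3 adrenals and 16.9 to 33.5 in Air adrenals. Pde3b and Pde4d, also named after their values were seen, rose (0.64 ± 0.19 and 0.84 ± 0.27). Neither PDE8 gene was among those that passed.

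**Figure D3:**
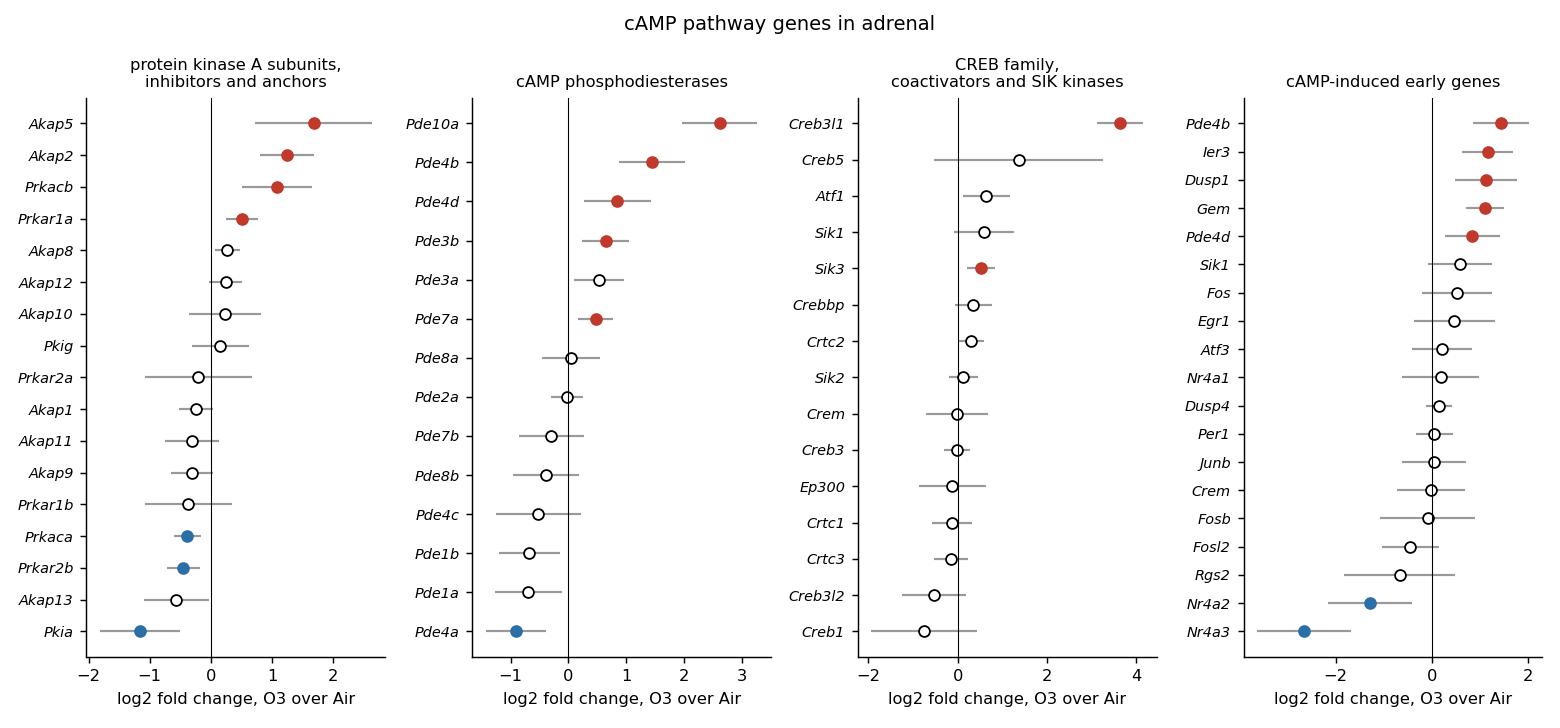
Log2 fold change, O3 over Air (horizontal axes), of each tested gene of 4 cyclic AMP pathway lists in adrenal, with 95% intervals; filled points have limma adjusted p under 0.05, red for risen and blue for fallen. Pde10a and Creb3l1 have the largest risen values of their lists, Nr4a3 the largest fallen one, and Crem, Pde8a and Pde8b are open points.

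In the list of CREB family members, coactivators and salt-inducible kinases, 2 of 15 rose and 0 fell, and 5 rose with array weights. Creb3l1, which encodes a membrane-bound factor released under secretory stress, had 3418 to 6516 in O3 adrenals and 232.7 to 582.6 in Air adrenals, a log2 fold change of 3.64 ± 0.24 (SE; limma, adjusted p = 2.47e-06). Sik3, the gene of a kinase that restrains CREB coactivators, rose by 0.52 ± 0.14. Genes induced early by cyclic AMP were mixed, with 5 of 19 risen and 2 fallen. The GTPase gene Gem (1.11 ± 0.18), Pde4b and the stress-response gene Ier3 (1.16 ± 0.24) rose. Nr4a3, an orphan nuclear receptor gene, fell (-2.66 ± 0.45, limma adjusted p = 0.00148), with 367.4 to 1083 in O3 adrenals and 1260 to 10914 in Air adrenals.

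Of 17 nuclear receptors and partners of NR5A1 tested, 1 rose and 1 fell. DESeq2 called 2 risen and 4 fallen, array weights gave 2 and 5, and leaving out Air 8 and O3 16 gave 2 and 2. Nr0b2, which encodes the repressor SHP, a relative of NR0B1, had 36.7 to 91.4 in O3 adrenals and 84.9 to 180.7 in Air adrenals (-1.24 ± 0.25, limma adjusted p = 0.00479). In the list of cholesterol supply and steroid synthesis 3 of 18 rose and 0 fell: Scarb1, Fdx1 and the P450 reductase gene Por (0.83 ± 0.24). Star, which encodes the cholesterol transporter of the mitochondrial membrane, had a log2 fold change of 0.62 ± 0.23 and did not pass (adjusted p = 0.0796), though it passed without Air 8 and O3 16 (0.59, adjusted p = 0.0175). Star is named here because it marks the acute response to ACTH.

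In the angiotensin and aldosterone list 3 of 17 rose and 2 fell, against 5 and 4 when Air 8 and O3 16 were left out. Kcnj5, the potassium channel gene that sets the membrane potential of aldosterone-producing cells, had 60.9 to 168.7 in O3 adrenals and 16.9 to 45.4 in Air adrenals (1.68 ± 0.29, limma adjusted p = 0.00171). Agt, the angiotensinogen gene, rose (1.31 ± 0.38), as did Agtr1a, and Agtrap, which encodes a protein that promotes internalisation of the type 1 receptor, fell (-0.56 ± 0.12, adjusted p = 0.00536) together with Agtr1b.

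The adrenal libraries also show which genes varied with Mc2r and with Nr0b1 once the exposure means were removed, as a description over 11 libraries and 10939 genes that share depth and tissue makeup. Closest to Mc2r were Ddx6 (Pearson r = 0.988), Mmgt1, Zbtb4 and Prkar2a (0.982). Without Air 8 and O3 16 these 4 correlations were 0.925 to 0.950. Closest to Nr0b1 were Pla2g12a (0.926), Shisa5, Pdlim3, Nsmce1 and Scfd2 (0.895).

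Across tissues, every member had its highest mean share of the summed values in adrenal, given here as CPM of each library's summed values because the tables were normalised separately. In Air libraries Mc2r stood at 123 ± 60.8 CPM in adrenal, 40.9 ± 8.42 in adipose tissue and 1.91 ± 0.938 in lung, and under 1 in the other tissues. Mrap stood at 567 ± 203 CPM in adrenal and 51.3 ± 13.0 in adipose tissue. For both genes the Air libraries of adrenal and adipose tissue did not overlap, and below them hypothalamus, liver and muscle overlapped with their neighbours. Scarb1 stood at 3541 ± 1811 CPM in adrenal and 126 ± 22.9 in adipose tissue, and Nr5a1 at 320 ± 122 in adrenal, 5.73 ± 1.39 in hypothalamus and 2.38 ± 1.66 in muscle. Agtr1b and Nr0b1 were at or near 0 outside adrenal, apart from Nr0b1 in hypothalamus (1.40 ± 0.316 CPM). The ranges of adrenal and the next tissue overlapped for Pde8a (lung), Pde8b (hypothalamus) and Prkar1a (hypothalamus). These are SDs over 5 or 6 libraries, and no test was made across tables.

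In the other tissues fewer members reached the filter: 6 of 10 in adipose tissue, liver, lung and muscle and 8 in hypothalamus. Each count is set beside the share of all genes called in that tissue. In adipose tissue 0 members rose and 0 fell, where 3.87% of all genes rose and 3.45% fell (7.32% in all). In hypothalamus 0 rose and 1 fell (Nr0b1), where 0.789% of genes rose and 0.624% fell (1.41% in all). In liver 1 rose (Prkar1a) and 1 fell (Crem), where 6.74% of genes rose and 4.72% fell (11.5% in all). In lung 2 rose (Crem and Pde8a) and 0 fell, where 9.51% of genes rose and 8.18% fell (17.7% in all). In muscle 1 rose (Nr5a1) and 1 fell (Pde8a), where 21.6% of genes rose and 22.1% fell (43.7% in all). In adipose tissue, where limma called 0 members, 1 rose and 0 fell at an unadjusted p under 0.05, and the count tools were run in adrenal only.

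**Figure D4:**
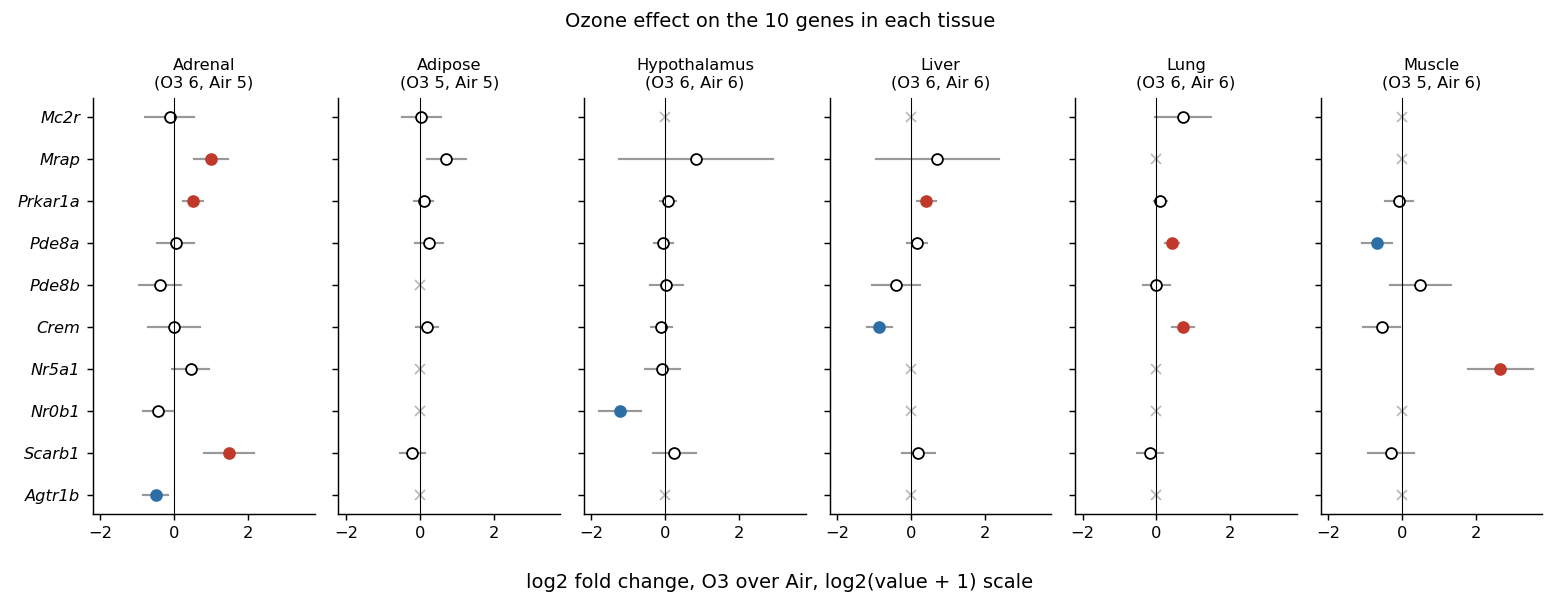
Log2 fold change, O3 over Air (horizontal axes, log2(value + 1) scale), of each member in each tissue with 95% intervals; filled points have limma adjusted p under 0.05 (red risen, blue fallen), and grey crosses mark members under the filter on low values. Scarb1 is filled in adrenal only, Crem is filled in liver (fallen) and lung (risen), and Nr5a1 in muscle has the largest value.

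Mrap in adipose tissue had 1081, 1586, 701.6, 1684 and 1381 in O3 libraries and 763.0, 748.5, 512.4, 1015 and 791.2 in Air libraries. All O3 libraries but O3 21 were above all Air libraries, and no tested member separated the groups in adipose tissue, as 8.81% of all genes did (4.38% with O3 above and 4.43% with O3 below). The log2 fold change was 0.71 ± 0.24 (SE, limma adjusted p = 0.102), and it passed only in the fit without O3 21 (0.92, adjusted p = 0.0207). Mc2r in adipose tissue did not pass (0.05 ± 0.25 on the log2 scale, limma adjusted p = 0.940), with 351.8 to 940.1 in O3 libraries and 465.8 to 821.0 in Air libraries.

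In liver and lung Crem was called in opposite directions. Liver O3 libraries had 623.6 at the lowest, 715.5 at the median and 1114 at the highest, and liver Air libraries had 1081, 1448 and 1648, so that the groups met only between the highest O3 and the lowest Air library. Of all genes, 7.62% separated the groups in liver, 4.77% with O3 above and 2.85% with O3 below. The log2 fold change in liver was -0.85 ± 0.16 (SE, limma adjusted p = 0.00224), called in all 12 fits that left out 1 library. Lung O3 libraries had 488.8, 546.1 and 877.3 and lung Air libraries 304.1, 380.2 and 391.9, with no overlap, as in 9.54% of all genes there (5.54% with O3 above and 4% with O3 below). The log2 fold change in lung was 0.71 ± 0.14 (SE, limma adjusted p = 0.00223), again called in all 12 fits. Muscle Crem fell short of the threshold (-0.56 ± 0.24, adjusted p = 0.0703), and passed without Air 2 or Air 4. The 2 inner promoter windows printed above are those of this gene, and the values do not tell which of its start sites the reads came from. A direct test of liver against lung was not made.

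Pde8a was called in lung and in muscle, also in opposite directions. In lung it had 834.9, 930.1 and 1023 as lowest, median and highest values in O3 libraries and 593.2, 676.0 and 807.3 in Air libraries, with no overlap and a log2 fold change of 0.42 ± 0.09 (SE, limma adjusted p = 0.0062). In muscle the O3 libraries had 115.0, 184.1, 111.3, 105.9 and 131.5, and the Air libraries 171.2 at the lowest, 177.9 at the median and 311.1 at the highest. Only O3 15 lay within the Air range, and the log2 fold change was -0.68 ± 0.19 (SE, limma adjusted p = 0.0122).

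Nr5a1, the steroidogenic factor gene, was called in muscle. The muscle O3 libraries had 258.0, 125.4, 276.6, 137.9 and 227.7, and the muscle Air libraries had 14.0 at the lowest, 26.4 at the median and 84.8 at the highest. All O3 libraries were above all Air libraries, as in 12.8% of the 13043 genes tested there (11.5% had O3 below and 24.3% either direction). On the log2 scale the change was 2.66 ± 0.41 (SE, limma adjusted p = 0.00034), called in all 11 fits that left out 1 library. Cyp11a1 was at 0 to 8.09 in all muscle libraries and Mrap at 0 to 12.3.

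Nr0b1 fell in hypothalamus at low values, with 3.93 at the lowest, 6.37 at the median and 9.86 at the highest in O3 libraries and 12.6, 15.3 and 22.6 in Air libraries. The groups did not overlap, as in 2.15% of the 15217 genes tested there (1.17% with O3 above and 0.979% with O3 below). O3 over Air came to a log2 fold change of -1.23 ± 0.26 (SE, limma adjusted p = 0.0339), but only 4 of the 12 leave-one-out fits kept the call (highest adjusted p 0.0884), which was lost without Air 1, Air 2, Air 3, Air 4, Air 7, O3 13, O3 16 or O3 18. Nr5a1 in hypothalamus did not pass (-0.08 ± 0.22, limma adjusted p = 0.896). Prkar1a in liver rose (0.41 ± 0.12, limma adjusted p = 0.0387), with 829.5 to 972.4 in O3 libraries and 479.4 to 790.2 in Air libraries, but this call was held in 3 of 12 fits that left out 1 library. It was lost without Air 2, Air 6, Air 9 or any 1 of the 6 O3 libraries.

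Some hypothalamus, liver and lung libraries held transcripts of the adrenal cortex, given here beside Mrap, Mc2r and Scarb1. Cyp11a1 reached 595.5 in hypothalamus O3 15, 578.4 in hypothalamus Air 2 and 671.7 in liver Air 2, while other libraries of these tissues were as low as 0 (liver O3 19) and 2.01 (hypothalamus Air 1). At a value of 50 or more, a line drawn after seeing the data, stood 4 of 6 O3 and 3 of 6 Air hypothalamus libraries, 3 of 6 O3 and 2 of 6 Air liver libraries, and 3 of 6 O3 and 1 of 6 Air lung libraries. Mrap was 10.8 to 48.5 in the hypothalamus O3 libraries at or above that line and 0.965 to 3.78 in those below it. In hypothalamus Air libraries it was 13.3 to 38.7 at or above the line and 0 to 1.29 below it.

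In the 7 hypothalamus libraries above the line Mrap stood at 52.8 to 112 per 1000 of Cyp11a1, with a median of 67.0, and in the 5 such liver libraries at 72.4 to 226. The 4 lung libraries above the line had 48.3 to 585, and lung Mrap overlapped across the line, with 4.67 to 31.7 above it and 3.03 to 13.1 below it in O3 libraries, and 11.1 above it and 0 to 15.1 below it in Air libraries. The 11 adrenal libraries had 62.3 to 125 on the same scale, and the 10 adipose libraries 7870 to 23500, so that fat expressed Mrap with little Cyp11a1 beside it. Mc2r was 9.18 in hypothalamus O3 15, against 0 in hypothalamus O3 18, and 8.42 in liver Air 2, against 0 in liver Air 1. Scarb1 in hypothalamus Air 2 was 705.1, while the other Air libraries of that tissue had 202.5 to 307.9. In hypothalamus O3 15, with the highest Cyp11a1 of that tissue, Scarb1 was 324.0, below the O3 median of 364.9. How these transcripts came into the libraries was not tested.

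**Figure D5:**
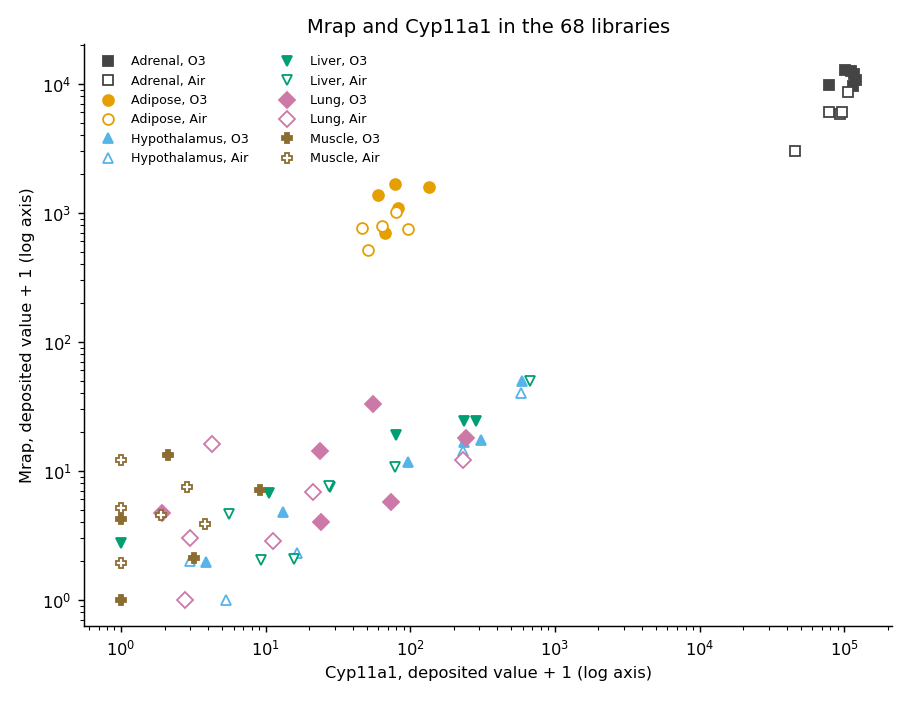
Mrap against Cyp11a1 in each of the 68 libraries (both axes: deposited value + 1, log scale), with filled symbols for O3 and open symbols for Air. Hypothalamus and liver libraries with Cyp11a1 of 50 or more have Mrap rising with it towards the adrenal libraries, and the adipose libraries stand above them with Mrap of 512 to 1684.

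Whether the adrenal response of a member differed from that elsewhere was tested in 1 limma fit over all 68 libraries, as the adrenal log2 fold change minus the mean of the 5 others. Of 13869 genes tested, 17.1% were called, and 2 of the 9 members in that fit were (Scarb1 and Prkar1a); Agtr1b was too low outside adrenal to enter it. Scarb1 rose by 1.49 in adrenal, while its log2 fold changes elsewhere lay between -0.31 in muscle and 0.24 in hypothalamus. The difference was 1.53 ± 0.29 (SE, limma adjusted p = 7.12e-05). Against each tissue alone it was 1.69 (adipose tissue), 1.24 (hypothalamus), 1.29 (liver), 1.65 (lung) and 1.79 (muscle), with limma adjusted p between 0.000198 and 0.0198. The shares of all genes called in these 5 comparisons were 9.91%, 10.4%, 12.6%, 10.2% and 31.3%.

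For Prkar1a the difference was 0.39 ± 0.13 (SE, limma adjusted p = 0.0327), but without Air 8 and O3 16 it was 0.30 (adjusted p = 0.140). Against single tissues it was called for muscle only (0.59, adjusted p = 0.00593), where it was 0.51 (adjusted p = 0.0216) without Air 8 and O3 16, and against liver it was 0.10 (adjusted p = 0.822). Mrap differed by 0.40 ± 0.83 (adjusted p = 0.805), a 95% interval of -1.25 to 2.05 that allows a wide range. Against adipose tissue alone the Mrap difference was 0.28 ± 1.09 (SE, limma adjusted p = 0.931). This fit pools the spread of each gene over all tissues, also those where the gene is near 0. In the fits within tissues the SE of Mrap was 0.21 in adrenal and 0.24 in adipose tissue. An absent call here does not show equal effects. Pde8a differed between adrenal and muscle (0.72, adjusted p = 0.0151). Nr0b1 against hypothalamus was 0.80 (limma adjusted p = 0.0292) and Nr5a1 against muscle -2.22 ± 0.89 (SE, limma adjusted p = 0.0498). Both calls were lost with a pseudocount of 0.5 (adjusted p = 0.0847 and 0.107), the first also without Air 8 and O3 16 (0.75, adjusted p = 0.0668). In the fits within tissues the SE of Nr5a1 was 0.23 in adrenal and 0.41 in muscle.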

How the data were processed

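RNA-seq values were analysed for 68 libraries of 6 tissues. Adrenal Air 7 and muscle O3 17 were not analysed here. Per the labels' protocols, total RNA was isolated with a kit that differed between tissues, mRNA was selected, and libraries were sequenced on a NextSeq 500. The deposited values are a signal per gene, and the tools Partek and DESeq2 and the build rn6 appear in the submitters' processing notes, with no role or order. The aligner, annotation and strand setting were not given in any source used here. In every column 100% of values were whole multiples of 1 step (tolerance 0.01), so they are read counts divided by a factor per library, made for each tissue apart. Recovered depths were 8854272 to 18848151 reads, and 24 entries that spreadsheet software had turned into dates were left out. No column of per-sample values was without a sample (0).

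Values were tested as log2(value + 1) in limma 3.58.1 (R 4.3.3, trend and robust moderation) over genes with a mean of at least 10, with Benjamini-Hochberg adjustment over all genes of a tissue and a threshold of 0.05; on this scale fold changes of low genes are understated. In adrenal, edgeR 4.0.16 and DESeq2 1.42.0 on recovered reads were alternatives. The scripts were tested on simulated data. Other alternatives were pseudocounts of 0.5 and 5, no filter or a mean of at least 50, TMM factors, array weights, leaving out each library, the number in the title as a replicate block, and, chosen after seeing the data, leaving out Air 8 and O3 16 and setting adrenal against each tissue alone. Named genes were all 10 members, up to 4 genes of lowest adjusted p per list among those called in adrenal, and the 5 genes most correlated with Mc2r and with Nr0b1; others are marked in the text, and some genes that this rule names are not reported here. Members and lists were chosen with earlier results of these data known. No 2 replicate libraries agreed within counting noise (chi-square per degree of freedom of at least 12.3 in adrenal). Promoters came from RefSeq tables on GRCr8, and no coordinates of the files' build were used.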

Additional observations from a re-analysis of the deposited data

Results flagged for a closer look

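Of 84 groups of 4 to 10 libraries checked for a library far from the others, 11 had one. The cut gives about 1 in 20 for independent, normally distributed values. The values were not logged here and the groups share libraries, so 11 of 84 cannot be read as an excess over chance. In adrenal these were Mc2r in Air 8 (2697) and Pde8a in O3 16 (1434), both of them libraries set apart along the first principal component. In adipose tissue it was Scarb1 in Air 9 (2384). Hypothalamus had 3: Mrap in O3 15 (48.5), Scarb1 in Air 2 (705.1) and Crem in O3 15 (304.3), and liver had Mrap in Air 2 (48.6) and Pde8a in Air 1 (812.6). The Mrap and Scarb1 libraries among them in hypothalamus and liver are those with the highest Cyp11a1 of their group. The remaining ones were Mc2r in lung O3 16 (63.5), Crem in muscle Air 3 (934.5) and Pde8b in muscle O3 13 (34.6).

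In the limma test of the difference itself, 5 members were called in any comparison. The share of all genes called in any comparison was not counted, so this number has no background beside it. The comparisons with single tissues were chosen after seeing the data. Of all genes tested, 17.1% were called against the other 5 tissues together. Against single tissues the share ran from 9.91% (adipose tissue) to 31.3% (muscle). Scarb1 had a larger effect in adrenal than over the other 5 tissues (difference 1.53) and than in adipose tissue (1.69), hypothalamus (1.24), liver (1.29), lung (1.65) and muscle (1.79) alone. Prkar1a differed by 0.39 from the mean of the others and by 0.59 from muscle. Nr0b1 differed by 0.80 from hypothalamus. Against muscle, Nr5a1 differed by -2.22 and Pde8a by 0.72.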

How the results depend on the processing

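With 1294 genes risen and 1315 fallen in adrenal, array weights gave 2407 and 2415, leaving out Air 8 and O3 16 (chosen after seeing the data) 2113 and 2107, edgeR 1230 and 1406, and DESeq2 1639 and 1748. Leaving out 1 library gave 1023 to 1769 risen and 937 to 1750 fallen. Members fallen came to 0 in adrenal with no filter, and 0 in hypothalamus with a mean of at least 50, and members risen to 0 in liver with no filter. With both libraries left out the difference to the other tissues was called for 1 member (Scarb1). Agtr1b in adrenal was lost with no filter (adjusted p = 0.0586) and with array weights (0.0538). Leaving out 1 library, members fallen ranged over 0 to 1 in adrenal, 0 to 1 in hypothalamus and 1 to 2 in muscle, and members risen over 0 to 1 in adipose tissue and 0 to 1 in liver; the libraries are named in the report. In adrenal, 3 members rose in every fit that left out 1 library.

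Every sign that turned belonged to a value that was not called. In adrenal these were Mc2r (0.046 with array weights, 0.017 without Air 8 and O3 16), Crem (0.017 without both) and Pde8a (-0.019 in edgeR, -0.013 in DESeq2). Among differences of members past the filter in both tissues, or against the other 5, they were Mc2r against the other 5 (0.032 with pseudocount 0.5, 0.13 without both), Nr5a1 against the other 5 (-0.10 without both), Mrap against hypothalamus (-0.036 with pseudocount 0.5, -0.029 without both) and Pde8b against liver (-0.040 with pseudocount 5). Over fits that left out 1 library, fold changes ran from -0.29 to 0.17 for Mc2r, -0.25 to 0.18 for Crem and -0.082 to 0.26 for Pde8a in adrenal. They ran from -0.10 to 0.25 for Mc2r in adipose tissue, -0.13 to 0.00071 for Pde8a and -0.12 to 0.14 for Pde8b in hypothalamus, -0.085 to 0.14 for Pde8b in lung, and -0.18 to 0.022 for Prkar1a in muscle. The cause of these shifts was not tested.

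The 90 same-number pairs across tissues had a median correlation of deviations of 0.027, with 38 over 0.1. The 872 pairs of different numbers had a median of 0.006, with 345 over 0.1. Such correlations between unlike tissues cannot tell whether equal numbers mark the same rat. With the number as a replicate block in the fit over all tissues, 2374 genes were called in place of 2373, and the difference was 1.53 for Scarb1 and 0.39 for Prkar1a, the 2 members called. Members at low values, such as Nr0b1 in hypothalamus and Nr5a1 and Mc2r outside their main tissues, rest on few reads.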
